A study of Mus musculus with 12 samples.

Results

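Livers of mice given a diet labelled HFCF for 3 months were compared with livers of mice of the same age given normal chow for 3 months. The libraries were chosen by their labels, 3 from HFCF livers and 3 from chow livers, out of 12 in the series. All of these mice were labelled male, C57BL/6, WT and 6 months of age, and nothing beyond the diet separates the groups in the labels, which do not spell out HFCF. The other 6 libraries came from mice of 3 months of age after 1 month on HFCF or on chow. They entered the fits below to share in the estimate of spread and for the contrast between times, in which age and time on the diet cannot be told apart. The study asked which hepatic miRNAs mark experimental nonalcoholic steatohepatitis, in which fat in the liver comes with inflammation. The samples of a group are described as biological replicates. The labels' protocols name a kit for small RNA libraries, whereas the design text names a stranded kit for total RNA after depletion of ribosomal RNA. These sources do not settle which one was used.

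MicroRNAs are short RNAs cut from hairpin precursors that guide Argonaute proteins to messenger RNAs, mainly through the seed near the 5′ end, and lower the output of their targets. Small nucleolar RNAs (snoRNAs) guide the methylation (C/D box) or pseudouridylation (H/ACA box) of ribosomal RNA, and their relatives in Cajal bodies, the scaRNAs, do the same for spliceosomal RNAs. Reads on protein-coding genes in such libraries come from fragments of messenger RNAs and introns. In liver these fragments report on hepatocyte genes above all, such as those for lipid handling, the urea cycle and plasma proteins.

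The count table gave between 3738183 and 4633055 counts per library in HFCF livers and between 2539388 and 4513433 in chow livers. After genes that share reads with a small RNA inside them were set aside, miRNA loci took 80.7% ± 4.24 of the counts in HFCF livers and 80.5% ± 1.23 in chow livers (SD, n = 3 each, exact two-sided permutation p = 0.9). SnoRNA and scaRNA genes took 9.74% ± 2.44 in HFCF livers and 11.5% ± 0.431 in chow livers (exact permutation p = 0.4), and nuclear protein-coding genes 1.61% ± 0.186 in HFCF livers and 1.56% ± 0.158 in chow livers (exact permutation p = 0.5). With 3 libraries against 3 the smallest p is 0.1. The liver label held against its markers: the hepatocyte transcripts Alb, Apoa1, Apoa2, Ttr, Serpina1c, Trf and Fgb were all present, with 3059 to 4117 counts per library in HFCF livers and 2334 to 4002 in chow livers. The only pancreas marker in the table, Mir375, stayed at 8 to 12 counts in HFCF livers and 4 to 10 in chow livers.

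Each class was scaled and tested on its own, and a change was called at an adjusted p under 0.05 in edgeR's quasi-likelihood test. Of 227 miRNA loci tested (259 in the table), 20 rose and 32 fell, which is 22.9% (8.81% higher, 14.1% lower). Of 1591 protein-coding genes tested (2889 in the table), 16 rose and 23 fell, which is 2.45% (1.01% higher, 1.45% lower). Of 254 snoRNA and scaRNA genes tested (269 in the table) 1 rose, which is 0.394%, and 0 fell; 33 had an unadjusted p under 0.05, and DESeq2 and limma-voom called 1 each. All 3 HFCF libraries lay to 1 side of all 3 chow libraries at 39.2% of miRNA loci, 20.1% of protein-coding genes and 21.3% of snoRNA and scaRNA genes. The median log2 fold change over all genes tested was 0.02 for miRNA loci, 0.0048 for protein-coding genes and 0.03 for snoRNAs and scaRNAs. Protein-coding fragments were sparse, with 29964 to 58925 counts per library and a median of 11.7 counts per tested gene and library, against 1434214 to 2689186 counts per library on miRNA loci.

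**Figure D1:**
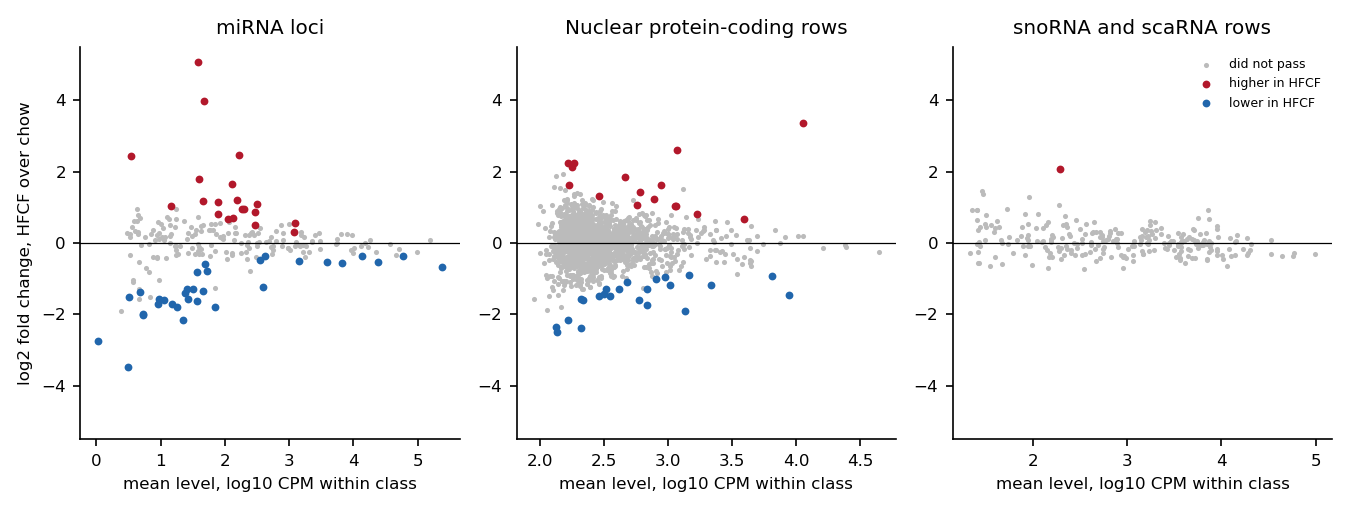
Log2 fold change of HFCF over chow at 3 months (y axis) against mean level in CPM, the TMM-scaled share of the counts of the class, on a log scale (x axis), for miRNA loci, nuclear protein-coding genes and snoRNA or scaRNA genes. Coloured points passed at an adjusted p under 0.05: 52 of 227, 39 of 1591 and 1 of 254.

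The split of the miRNA calls depended on scaling. Scaled to the sum of miRNA counts without TMM, the fold changes shifted upward, to a median of 0.27 over all loci, and 59 loci were called higher and 18 lower, against 20 and 32. None of the 52 called loci changed sign. HFCF replicate 1 lay nearest to the chow libraries at 30 of the 52 loci, replicate 2 at 12 and replicate 3 at 10. Without HFCF replicate 1, 70 loci were called; without HFCF replicate 2 or 3, 32 and 26 were called, and without chow replicate 3, 20 were called.

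The mature sequences behind the miRNA results are given here from RefSeq (GRCm38.p6), 5′ to 3′, with the seed (bases 2 to 8) in capitals; 49 of the 52 called loci have such an entry on their own strand. The first set belongs to the loci with the largest fitted rises that reached 10 CPM, Mir582, Mir205 and Mir149.
miR-582-5p: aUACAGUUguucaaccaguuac
miR-582-3p: uAACCUGUugaacaacugaac
miR-205-5p: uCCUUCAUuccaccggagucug
miR-149-5p: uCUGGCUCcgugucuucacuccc
The next set shows seeds that are shared by loci which rose (miR-221 and miR-222) or fell together (miR-379 and miR-411). The last pair shares the seed of the 3p arms only, and the counts sum both arms.
miR-221-3p: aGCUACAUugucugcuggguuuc
miR-222-3p: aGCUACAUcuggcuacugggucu
miR-379-3p: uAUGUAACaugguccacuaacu
miR-411-3p: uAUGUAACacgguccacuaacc
The let-7 set has 1 seed and loci called in both directions, let-7a-1 and let-7c-1 up and let-7g down.
let-7a-5p: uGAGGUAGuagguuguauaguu
let-7c-5p: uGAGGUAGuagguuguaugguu
let-7g-5p: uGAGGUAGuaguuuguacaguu
In the last set, miR-101a and miR-101b, which both fell, carry the same run of letters shifted by a single base, so that their seeds differ. MiR-33 and miR-21a are shown as the miRNA of the Srebf2 intron and the most counted miRNA of these libraries.
miR-101a-3p: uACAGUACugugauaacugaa
miR-101b-3p: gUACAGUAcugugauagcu
miR-33-5p: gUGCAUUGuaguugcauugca
miR-21a-5p: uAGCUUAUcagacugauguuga

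Among the miRNAs that rose, Mir582 and Mir205 were scarce in chow livers. Mir582, intronic in Pde4d (chr13:109324744-109324824, plus strand, mm10), had 18.3, 101 and 105 CPM in HFCF livers, against 2.01, 0.88 and 3.53 CPM in chow livers, where CPM are taken over miRNA loci (log2 fold change 5.09 ± 0.69 SE, adjusted p = 0.000392). Mir205, an miRNA of epithelia whose hairpin is exonic in 4631405K08Rik, had 36.2, 139 and 90.8 CPM in HFCF livers, against 8.05, 4.84 and 4.42 CPM in chow livers (log2 fold change 3.98 ± 0.51 SE, adjusted p = 0.000287). The groups were apart for both, and HFCF replicate 1 was the lowest HFCF library of each. Mir149, in an intron of Gpc1, had 248, 291 and 296 CPM in HFCF livers, against 55, 52.8 and 44.6 CPM in chow livers (log2 fold change 2.46 ± 0.29 SE, adjusted p = 0.000287), with little spread in either group. Mir676, in an intron of Eda, and Mir335, hosted by the imprinted gene Mest, rose as well (1.22 ± 0.15, adjusted p = 0.000287 and 0.96 ± 0.16, adjusted p = 0.00161).

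Other loci that rose included Mir34a, Mir802 and some leukocyte miRNAs. Mir34a, a target of p53, had 91.5, 278 and 217 CPM in HFCF livers, against 67.8, 58.1 and 59.2 CPM in chow livers (log2 fold change 1.67 ± 0.34 SE, adjusted p = 0.00435), and the lowest HFCF library was again replicate 1. Mir802, an miRNA enriched in liver, went the other way within its group, with 548, 384 and 365 CPM in HFCF livers, against 137, 217 and 249 CPM in chow livers (log2 fold change 1.10 ± 0.27 SE, adjusted p = 0.0125), so that replicate 1 was its highest HFCF library. Mir802 was the only rise among 8 tested hepatocyte miRNAs, and 2 fell (Mir101a and Mir101b), where 8.81% of all tested loci rose and 14.1% fell. Of the 8, 5 were negative and the median was -0.16. Scaled to class totals 2 rose, 0 fell and the median was 0.07. Of the list of leukocyte miRNAs, 3 of 6 tested rose and 1 fell, with a median log2 fold change of 0.70 against 0.02 over all loci. Mir223, of myeloid cells, had 81.1, 128 and 119 CPM in HFCF livers, against 55, 49.7 and 42.4 CPM in chow livers (log2 fold change 1.16 ± 0.19 SE, adjusted p = 0.00161). Mir155, of activated immune cells, had 39.1, 86.3 and 60.9 CPM in HFCF livers, against 14.1, 22.9 and 15.9 CPM in chow livers (log2 fold change 1.80 ± 0.36 SE, adjusted p = 0.00435). Mir342 rose by 0.95 ± 0.21 on the log2 scale (adjusted p = 0.00849), while Mir511, in an intron of the macrophage gene Mrc1, fell (-0.60 ± 0.18, adjusted p = 0.0307). Summed over 4 leukocyte markers (Mir223, Mir142, Mir155 and Mir342), the libraries held 979.5, 1675 and 1295 CPM in HFCF livers and 805, 1051 and 938 CPM in chow livers, which overlap; Mir142 lies opposite another annotated miRNA, so its counts are uncertain. Of 9 tested stellate and mesenchymal miRNAs 1 rose, Mir351 (0.69 ± 0.14, adjusted p = 0.00465), which is near the 8.81% of all tested loci that rose, with a median of -0.08; scaled to class totals 4 rose and the median turned positive (0.18). Of 5 tested biliary epithelial miRNAs 0 passed in edgeR (0 at an unadjusted p under 0.05), DESeq2 or limma-voom, and their median was 0.31. Of all 227 tested loci, 80 had an unadjusted p under 0.05 in edgeR. In bulk liver, fewer cells of a type and less RNA per cell cannot be told apart. Mir342 did not pass without chow replicate 3 (adjusted p = 0.0529), nor did Mir511 without HFCF replicates 2 or 3 or chow replicates 1, 2 or 3 and in 10 of 23 alternatives in all (0.0695 to 0.537).

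Loci with a shared seed were compared as groups, where 8.81% of all tested loci rose and 14.1% fell. Mir221 and Mir222 come from 1 stretch of chromosome X and share a seed, and both rose. Mir222 had 354, 372 and 422 CPM in HFCF livers, against 207, 218 and 204 CPM in chow livers (log2 fold change 0.87 ± 0.15 SE, adjusted p = 0.00171). Mir221, named after its values were seen, rose by 0.56 ± 0.12 on the log2 scale (adjusted p = 0.0062). The 4 tested loci of the miR-181 seed ACAUUCA had positive fold changes with a median of 0.59, and 1 of them, Mir181b-2, rose (1.05 ± 0.29, adjusted p = 0.0188). The 3 tested loci of miR-103 and miR-107, which lie in introns of the pantothenate kinase genes, were positive too, with a median of 0.72, and Mir103-2 rose (0.80 ± 0.19, adjusted p = 0.00962). Other groups went the other way. All 4 tested loci of the miR-29 seed AGCACCA were negative (median -0.335, range -0.392 to -0.0334), and 1 fell. So were all 4 of the seed AUUGCAC of miR-25, miR-32 and miR-92 (median -0.19, range -0.536 to -0.00557), and 1 fell. For Mir132 and Mir212, neighbours with 1 seed on chromosome 11, the log2 fold change was 1.18 (adjusted p = 0.0202, groups overlapping) and 0.96 (adjusted p = 0.0784, not passed); both were named after their values were seen, and Mir212 passed without HFCF replicate 1 (0.0207) and scaled to class totals (0.0313). Counts of Mir181b-2, Mir103-2, Mirlet7a-1, Mirlet7c-1, Mir92-1 and Mir30c-2 are uncertain as to locus, since each shares a mature sequence with another locus. Mir221 did not pass with all classes in 1 fit (adjusted p = 0.0698), nor did Mir181b-2 without HFCF replicates 2 or 3 or chow replicates 1 or 3 and with p-values adjusted over all classes (0.0516 to 0.0944). Mir103-2 did not pass without chow replicate 3 (adjusted p = 0.0519).

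The calls in the let-7 family depended on scaling. Of 10 tested loci in the list, 2 rose and 1 fell, with a median log2 fold change of 0.24, and 7 were positive. Scaled to class totals, 7 rose and 0 fell, with 9 positive and a median of 0.49. Without chow replicate 3, with p-values adjusted over all classes and with all classes in 1 fit, 0 were called. Mirlet7g, the only let-7 locus among them that fell, had 52407, 51831 and 49139 CPM in HFCF livers, against 67112, 60858 and 68949.5 CPM in chow livers (log2 fold change -0.36 ± 0.10 SE, adjusted p = 0.0235). Mirlet7a-1 had 363, 309 and 363 CPM in HFCF livers, against 249.6, 237 and 239 CPM in chow livers (log2 fold change 0.51 ± 0.13 SE, adjusted p = 0.0174). Mirlet7c-1 rose by 0.66 ± 0.18 on the log2 scale (adjusted p = 0.0184). Mirlet7g did not pass without HFCF replicates 2 or 3 or chow replicates 1 or 3 and in 8 of 23 alternatives in all (adjusted p = 0.0628 to 0.867), nor did Mirlet7a-1 without HFCF replicate 3 or chow replicate 3, with p-values adjusted over all classes and with all classes in 1 fit (0.0559 to 0.106). Mirlet7c-1 did not pass without chow replicates 2 or 3, with p-values adjusted over all classes and with all classes in 1 fit (adjusted p = 0.0567 to 0.0926).

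Of the 32 falls, 16 came from 2 genomic regions. In a stretch of the imprinted Dlk1-Dio3 region (chr12:109585790-109743237), whose miRNAs are made from the maternal chromosome, all 17 tested loci had negative fold changes. Of these 17, 12 fell and 0 rose, against 14.1% lower and 8.81% higher over all tested loci. Their median log2 fold change was -1.56, with a range of -2.74 to -1.02. For example, Mir411 had 17.9, 17.9 and 18.2 CPM in HFCF livers, against 68.4, 48.9 and 49.9 CPM in chow livers (log2 fold change -1.62 ± 0.30 SE, adjusted p = 0.00264). Mir381 had 7.07, 6.49 and 7.22 CPM in HFCF livers, against 25.5, 18.9 and 24.3 CPM in chow livers (log2 fold change -1.71 ± 0.30 SE, adjusted p = 0.00199). Mir136 had 7.48, 3.9 and 5.34 CPM in HFCF livers, against 16.8, 15.4 and 18.1 CPM in chow livers (log2 fold change -1.6 ± 0.31 SE, adjusted p = 0.00343). The groups were apart for each of these, and the HFCF libraries lay close together for Mir411 and Mir381. Mir411 and Mir379 (-1.29 ± 0.33, adjusted p = 0.0169) share the seed of their 3p arms. Mir1247, named after its values were seen, lies beyond this stretch in an exon of Dio3os and went up, with 7.48, 5.19 and 4.71 CPM in HFCF livers, against 2.68, 0.44 and 0.442 CPM in chow livers (log2 fold change 2.44 ± 0.72 SE, adjusted p = 0.0262). In counts these were 18, 16 and 15 in HFCF livers and 4, 1 and 1 in chow livers, all of them small. Mir136, Mir299b, Mir337 and Gm24321, 4 of the 17 loci, lie opposite an annotated miRNA on the other strand, and without the strand setting of the counting such pairs cannot be separated. Mir1247 did not pass without HFCF replicates 1, 2 or 3 or chow replicates 2 or 3 and with p-values adjusted over all classes (adjusted p = 0.054 to 0.133), nor did Mir379 without HFCF replicate 3 or chow replicates 1 or 3, with p-values adjusted over all classes and with all classes in 1 fit (0.0529 to 0.061). Mir127 did not pass without HFCF replicates 2 or 3 or chow replicates 1 or 3 and with p-values adjusted over all classes (adjusted p = 0.0599 to 0.102), nor did Mir300 without HFCF replicate 2 or chow replicates 1 or 3 and with p-values adjusted over all classes (0.0563 to 0.0654). Mir434 did not pass without HFCF replicate 3 or chow replicate 3 (adjusted p = 0.0516 to 0.0529), nor did Mir541 without HFCF replicates 2 or 3 or chow replicates 1 or 3, with p-values adjusted over all classes and with all classes in 1 fit (0.0508 to 0.0893).

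The second region is a stretch of chromosome X (chrX:66776757-66810504, minus strand) with 6 tested loci, Mir743, Mir883a, Mir741, Mir880, Mir881 and Mir871, which are known from testis. All 6 were negative and 4 fell, against 14.1% of all tested loci, with a median of -1.40 and a range of -3.47 to -1.04. Over all 34 tested loci of chromosome X, 5 rose, 4 fell and the median was 0.19. Mir743, named after its values were seen, had 2, 2 and 0 counts in HFCF livers, against 9, 10 and 15 counts in chow livers (log2 fold change -3.47 ± 0.61 SE, adjusted p = 0.00199). Mir741 had 5.82, 4.22 and 2.83 CPM in HFCF livers, against 10.1, 11.9 and 19 CPM in chow livers (log2 fold change -1.70 ± 0.39 SE, adjusted p = 0.00962). Mir881 had 16.2, 16.9 and 12.6 CPM in HFCF livers, against 26.2, 38.7 and 45 CPM in chow livers (log2 fold change -1.28 ± 0.38 SE, adjusted p = 0.0262). All of these were low levels, and the groups were apart. Outside both stretches, 20 of 204 loci rose, Mir1247 among them, and 16 fell, and the median was 0.09. Mir741 did not pass without HFCF replicate 3 or chow replicate 3 (adjusted p = 0.0516 to 0.0606), nor did Mir881 without HFCF replicates 2 or 3 or chow replicates 2 or 3, scaled to class totals, with p-values adjusted over all classes and with all classes in 1 fit (0.0587 to 0.128).

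Single miRNAs that fell included Mir33, Mir137 and Mir1948. Mir33, hosted by Srebf2, the sterol regulator, and known to lower the cholesterol exporter Abca1, had 7.07, 10.7 and 6.59 CPM in HFCF livers, against 22.1, 36.1 and 26.9 CPM in chow livers (log2 fold change -1.80 ± 0.32 SE, adjusted p = 0.00204). Mir137, an miRNA of neurons, had 13.3, 7.14 and 4.71 CPM in HFCF livers, against 33.6, 37 and 38.9 CPM in chow livers (log2 fold change -2.15 ± 0.38 SE, adjusted p = 0.00199). Mir1948, in an intron of Ttc39c, had 340.5, 211 and 163 CPM in HFCF livers, against 639, 482 and 550.1 CPM in chow livers (log2 fold change -1.23 ± 0.25 SE, adjusted p = 0.00446), and the order of the HFCF libraries, replicate 1 the highest, was the same as for Mir137. The list of lipid and sterol miRNAs had 3 rises (Mir223, Mir34a and Mir185) and 3 falls (Mir33, Mir30c-2 and Mir96) among 13 tested. Over all tested loci 8.81% rose and 14.1% fell, and the median of the list was 0.06. Scaled to class totals this list had 5 rises and 1 fall (median 0.32), and with p-values adjusted over all classes, or with all classes in 1 fit, 2 rises and 1 fall. Mir185 did not pass without HFCF replicates 2 or 3 or chow replicates 1 or 3 and in 15 of 23 alternatives in all (adjusted p = 0.0516 to 0.297), nor did Mir30c-2 without HFCF replicates 2 or 3 or chow replicates 1, 2 or 3 and in 12 of 23 alternatives in all (0.0558 to 0.815). Mir96 did not pass without any 1 of the 6 libraries and in 11 of 23 alternatives in all (adjusted p = 0.0615 to 0.364).

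Mir21 took 18.6%, 23.1% and 23.1% of miRNA counts in HFCF livers, against 27.6%, 28.4% and 29.5% in chow livers (log2 fold change -0.66 ± 0.16 SE, adjusted p = 0.0135). Mir101b had 23456, 18834 and 16206 CPM in HFCF livers, against 24463, 28105 and 32721 CPM in chow livers (log2 fold change -0.54 ± 0.15 SE, adjusted p = 0.0202), and Mir101a fell by a like amount (-0.56 ± 0.16, adjusted p = 0.0202). For both, HFCF replicate 1 lay just under the lowest chow library. Mir148a took 21%, 17.2% and 17.7% of the counts in HFCF livers and 14.9%, 15% and 14.2% in chow livers, and after TMM scaling its log2 fold change was 0.10 (edgeR adjusted p = 0.568); scaled to class totals it was 0.34 and passed (0.0235). Mir192 stayed between 9.97% and 10.2% in HFCF livers and between 10.1% and 10.2% in chow livers, and its fitted log2 fold change was -0.26 (adjusted p = 0.167), which passed without chow replicate 2 of 1 month (0.0129). Called loci under 10 CPM had a median absolute log2 fold change of 2.00, those at 10 to 100 CPM 1.39, those at 100 to 1000 CPM 0.96 and those at 1000 CPM or more 0.54. Mir21 did not pass without chow replicate 3 and with all classes in 1 fit (adjusted p = 0.0617 to 0.468), nor did Mir101b without HFCF replicates 2 or 3 or chow replicate 3, scaled to class totals, with p-values adjusted over all classes and with all classes in 1 fit (0.0699 to 0.556). Mir101a did not pass without HFCF replicates 2 or 3 or chow replicates 2 or 3, scaled to class totals, with p-values adjusted over all classes and with all classes in 1 fit (adjusted p = 0.0628 to 0.553).

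**Figure D2:**
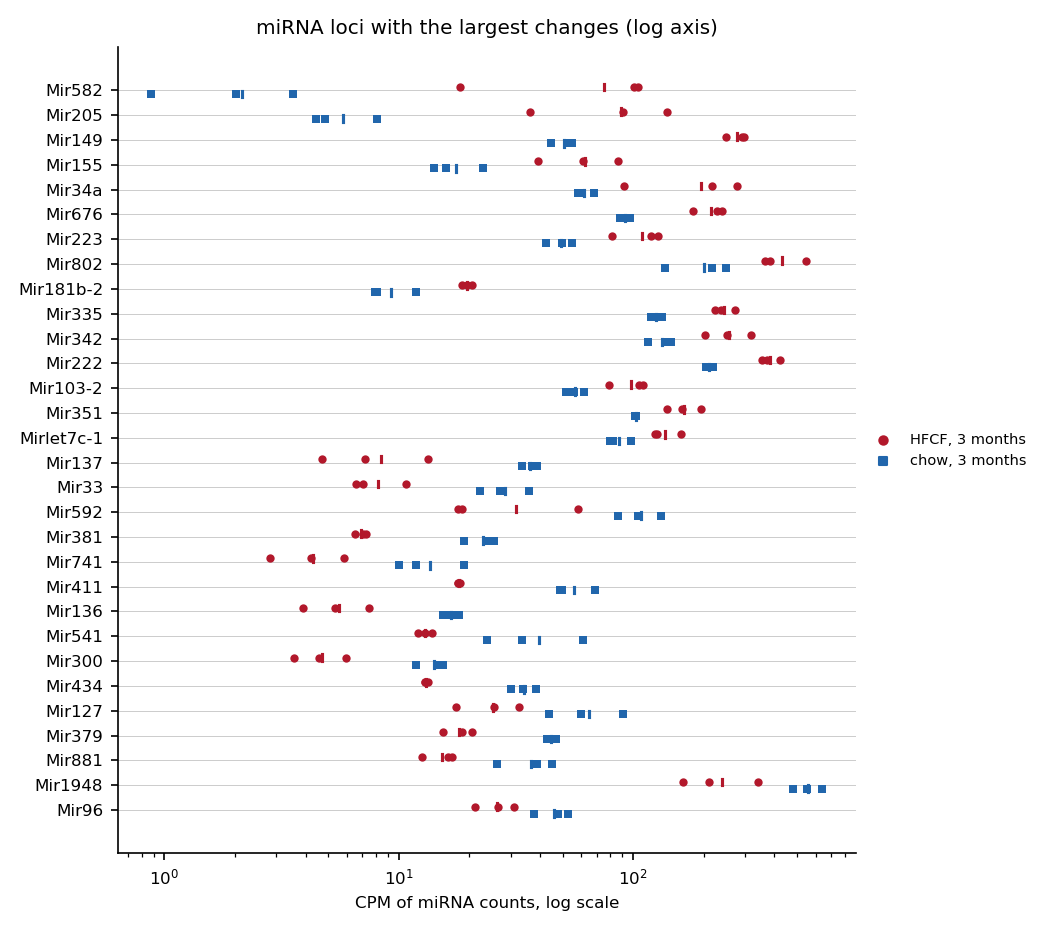
Level in each library of the miRNAs that passed with groups apart and reached 10 CPM, at most 15 with the largest rises and 15 with the largest falls, in CPM of miRNA counts on a log scale, with HFCF and chow libraries as separate colours. HFCF and chow libraries do not overlap for any miRNA shown, a condition of the naming rule, and the levels are on a log axis.

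Among protein-coding genes, the largest change was in Scd1, which encodes stearoyl-CoA desaturase, the enzyme that makes monounsaturated fatty acids. Scd1 (chr19:44394451-44407709, minus strand, mm10) had 15710.1, 17554 and 29026 CPM in HFCF livers, against 2067, 1619 and 2366 CPM in chow livers, with CPM here taken over nuclear protein-coding genes (log2 fold change 3.36 ± 0.30 SE, adjusted p = 1.48e-07). Every HFCF library was several times above every chow library. Car3 (chr3:14863538-14872351), a cytosolic carbonic anhydrase, had 2247, 1989.7 and 1773 CPM in HFCF livers, against 492, 290.0 and 246 CPM in chow livers (log2 fold change 2.61 ± 0.30 SE, adjusted p = 2.77e-09). Cd36, a fatty acid transporter of the cell surface, had 557, 862 and 759.8 CPM in HFCF livers, against 229.7, 96.7 and 265 CPM in chow livers (log2 fold change 1.85 ± 0.34 SE, adjusted p = 0.000175). Dnmt3a, a DNA methyltransferase that sets new methylation marks, had 804, 1680.2 and 1503 CPM in HFCF livers, against 427, 411 and 435 CPM in chow livers (log2 fold change 1.64 ± 0.28 SE, adjusted p = 9.13e-05), with HFCF replicate 1 the lowest of its group. The calls of these 4 genes held under each of the alternative analyses in which they were tested.

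Of the list of fatty acid oxidation and ketogenesis, 26 of 30 genes in the table were tested. Among these, 2 rose (Acaa1b and Fabp1) and 0 fell, against 1.01% and 1.45% of all tested genes. Of the 26, 20 had positive fold changes, with a median of 0.28 against 0.0048 over all genes tested. Acaa1b, a peroxisomal thiolase, had 1093, 1105 and 1064 CPM in HFCF livers, against 525, 290.0 and 568 CPM in chow livers (log2 fold change 1.23 ± 0.28 SE, adjusted p = 0.00526). Fabp1, the fatty acid binding protein of liver, had 2144, 2520.3 and 1840.5 CPM in HFCF livers, against 1476, 798 and 1419.6 CPM in chow livers (log2 fold change 0.82 ± 0.24 SE, adjusted p = 0.0473). Outside this list, Fabp2, the relative of Fabp1 in intestine, rose at low counts, with 309, 243 and 270.2 CPM in HFCF livers, against 32.8, 72.5 and 56.8 CPM in chow livers (log2 fold change 2.25 ± 0.56 SE, adjusted p = 0.0127). Aldh3a2, which oxidises fatty aldehydes, rose by 1.04 ± 0.27 on the log2 scale (adjusted p = 0.0138), and Vnn1, a pantetheinase, by 2.13 ± 0.54 on the log2 scale (adjusted p = 0.0134). Where a pair of values stands in brackets, it is the log2 fold change and edgeR's adjusted p. Members that did not pass included Cyp4a14, the ω-hydroxylase of fatty acids, with a log2 fold change of -0.86 (adjusted p = 0.243), which passed without HFCF replicate 1 (0.000117) or chow replicate 2 (0.0317). Ppara, the receptor that drives this programme, was named after its values were seen and did not pass (0.85, 0.0935), except in the 6 libraries alone (0.0238). Acaa1b has a near-identical relative in Acaa1a, so its counts are uncertain. Acaa1b did not pass without chow replicate 2 (adjusted p = 0.104), nor did Fabp1 without any 1 of the 6 libraries and in 14 of 25 alternatives in all (0.0504 to 0.328). Fabp2 did not pass without chow replicate 3 (adjusted p = 0.0598), nor did Aldh3a2 without HFCF replicates 1 or 3 or chow replicates 2 or 3 and with all classes in 1 fit (0.0624 to 0.214). Vnn1 did not pass without HFCF replicate 1 or chow replicate 3 and by limma-voom (adjusted p = 0.0595 to 0.105).

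Of 13 tested genes of fatty acid synthesis and storage, Scd1 alone rose and 0 fell, against 1.01% and 1.45% of all tested genes. Of the 13, 11 were positive and the median was 0.22. Elovl5, a fatty acid elongase, had a log2 fold change of 0.38 (edgeR adjusted p = 0.439), Lpin2, a phosphatidate phosphatase, 0.19 (0.806), and Plin2, a lipid droplet protein, 0.56 (0.29). Lpin1, named after its values were seen, had 41.2, 177 and 152 CPM in HFCF livers, against 394, 193 and 341 CPM in chow livers and did not pass (-1.28 ± 0.41, 0.0874). Of 6 tested genes of sterol synthesis 0 passed in edgeR (1 at an unadjusted p under 0.05), DESeq2 or limma-voom, and the median was -0.30. Of all 1591 tested genes, 235 had an unadjusted p under 0.05 in edgeR.

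Of 28 tested genes of the urea cycle and of amino acid breakdown (34 in the table), 5 fell and 0 rose, against 1.45% and 1.01% of all tested genes; 22 had negative fold changes, 14 lay wholly below the chow libraries and the median was -0.56, against 10.3% of all tested genes wholly below and a median of 0.0048. Cps1 (chr1:67123026-67231259), the first enzyme of the urea cycle, had 6309, 4134 and 3816 CPM in HFCF livers, against 12074, 12446 and 14347 CPM in chow livers (log2 fold change -1.45 ± 0.20 SE, adjusted p = 1.98e-07). Arg1, its last enzyme, had 1237, 973 and 827 CPM in HFCF livers, against 1837, 1982 and 1855 CPM in chow livers (log2 fold change -0.91 ± 0.23 SE, adjusted p = 0.013). Asl, another enzyme of the cycle, was named after its values were seen and did not pass (-0.81, 0.0661). Got1, which transfers the amino group of aspartate, had 536, 199 and 219.5 CPM in HFCF livers, against 886, 1160.0 and 1117 CPM in chow livers (log2 fold change -1.75 ± 0.30 SE, adjusted p = 9.17e-05). Tat, which starts tyrosine breakdown, had 1216, 1769 and 1030.0 CPM in HFCF livers, against 2855, 3118 and 3104 CPM in chow livers (log2 fold change -1.19 ± 0.23 SE, adjusted p = 0.000484). Hal, which starts histidine breakdown, had 454, 287 and 169 CPM in HFCF livers, against 558, 1112 and 965 CPM in chow livers (log2 fold change -1.59 ± 0.32 SE, adjusted p = 0.000714). The groups were apart for all 5, and Cps1, Got1, Tat and Hal passed under each alternative in which they were tested. Among members that did not pass, Tdo2 had a log2 fold change of -0.59 (adjusted p = 0.101) and Oat of 0.18 (adjusted p = 0.777). In the 6 libraries alone Asl (0.0277) and Tdo2 (0.0296) passed. Glul, which makes glutamine and is expressed by hepatocytes around the central vein, went the other way, with 1258, 1946 and 1503 CPM in HFCF livers, against 656, 846 and 776 CPM in chow livers (log2 fold change 1.03 ± 0.25 SE, adjusted p = 0.00906). Kynu, of tryptophan breakdown, fell (-1.30 ± 0.37, adjusted p = 0.037). Arg1 did not pass without HFCF replicates 2 or 3 or chow replicates 2 or 3 and with all classes in 1 fit (adjusted p = 0.0532 to 0.20), nor did Glul without HFCF replicate 2 or chow replicates 1 or 3 and with all classes in 1 fit (0.0567 to 0.119). Kynu did not pass without HFCF replicate 2 or chow replicates 1 or 3, by limma-voom, with all classes in 1 fit and with read-sharing rows kept (adjusted p = 0.0526 to 0.287).

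Of 16 tested genes of the methionine cycle and of methyl group transfer (18 in the table), 5 fell and 0 rose, against 1.45% lower and 1.01% higher over all tested genes. Of these 16 genes 13 had negative fold changes, and the median was -0.64, against 0.0048 over all tested genes. Mat1a, which makes S-adenosylmethionine in hepatocytes, had 5319, 4245 and 3833 CPM in HFCF livers, against 8203, 8265 and 8877 CPM in chow livers (log2 fold change -0.92 ± 0.20 SE, adjusted p = 0.00198). Gnmt, which uses it to methylate glycine, had 763, 553 and 608 CPM in HFCF livers, against 1181, 1281 and 1268 CPM in chow livers (log2 fold change -0.96 ± 0.25 SE, adjusted p = 0.0176). Nnmt, which methylates nicotinamide, was low, with 41.2, 66.3 and 67.5 CPM in HFCF livers, against 262, 290.0 and 265 CPM in chow livers (log2 fold change -2.17 ± 0.49 SE, adjusted p = 0.00376). Bhmt, which returns homocysteine to methionine, had 371, 354 and 473 CPM in HFCF livers, against 1050.0, 677 and 1211 CPM in chow livers (log2 fold change -1.28 ± 0.28 SE, adjusted p = 0.00234). Cth, which makes cysteine from cystathionine, had 701, 641 and 557 CPM in HFCF livers, against 1247, 1692 and 1363 CPM in chow livers (log2 fold change -1.19 ± 0.25 SE, adjusted p = 0.00183). The libraries of the groups did not overlap for any of the 5. Sardh, Dmgdh and Aldh1l1, the most counted members that did not pass, had log2 fold changes of 0.02, -0.55 and -0.33 (adjusted p = 0.984, 0.41 and 0.693). Gnmt did not pass without HFCF replicates 2 or 3 or chow replicates 2 or 3 and with all classes in 1 fit (adjusted p = 0.0567 to 0.14), nor did Nnmt by limma-voom (0.0584). Bhmt did not pass without chow replicate 3 (adjusted p = 0.0937). Without chow replicate 3, 3 of the 5 remained called.

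**Figure D3:**
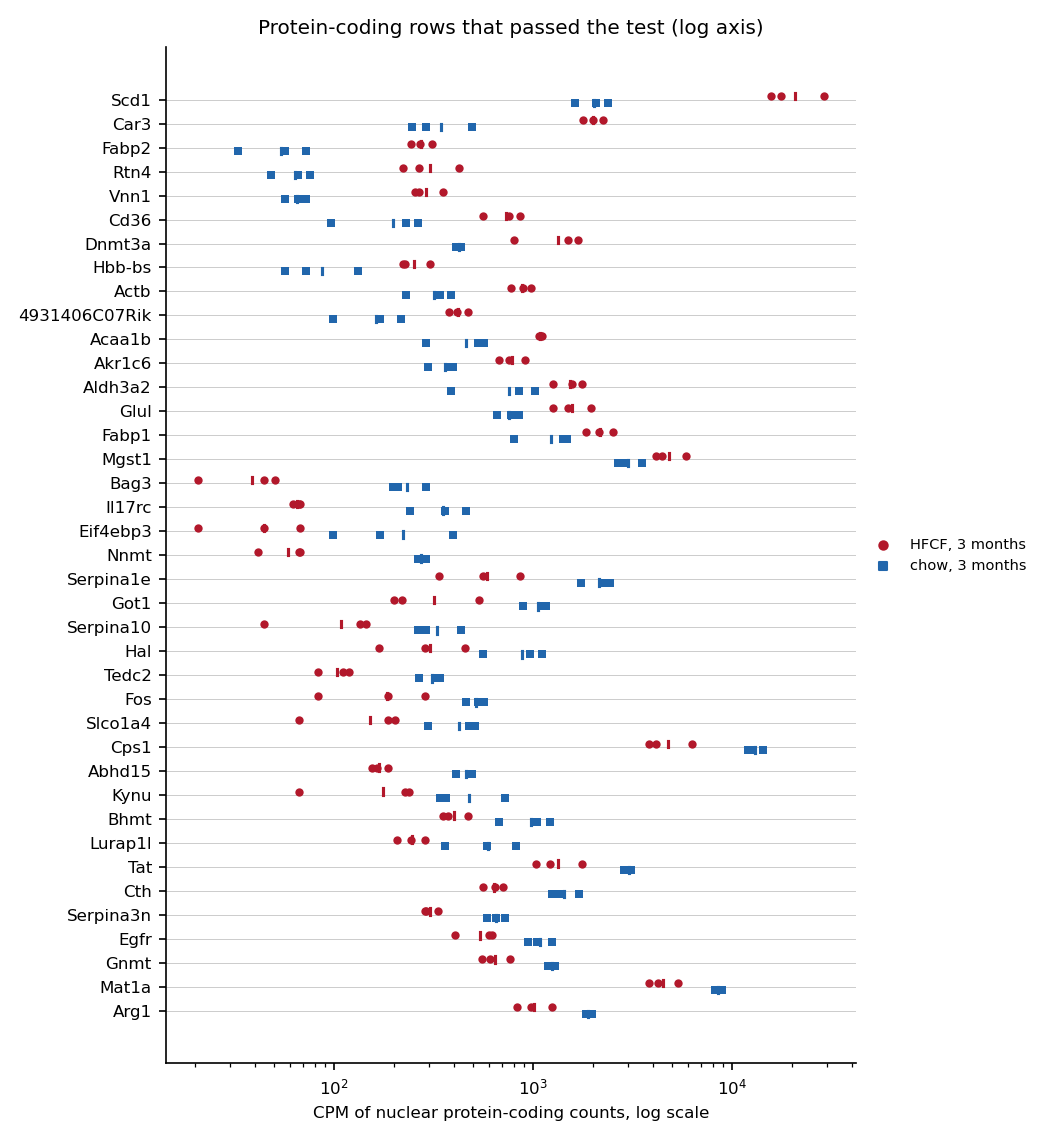
Level in each library of the 39 protein-coding genes that passed, in CPM of nuclear protein-coding counts on a log scale, with HFCF and chow libraries as separate colours. The 16 genes that rose and the 23 that fell are shown, and no gene has overlapping groups.

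For most secreted plasma proteins no change was called. Of 46 tested genes 1 fell, near the 1.45% of all tested genes that fell, and 0 rose, with a median of -0.08. Of the 46, 12 lay wholly below and 4 wholly above the chow libraries, against 10.3% and 9.74% of all tested genes. Serpina1e, of the α1-antitrypsin family, had 557, 862 and 338 CPM in HFCF livers, against 2428, 1740.0 and 2290.2 CPM in chow livers (log2 fold change -1.90 ± 0.31 SE, adjusted p = 0.000175); the family's members are near-identical, so the counts are uncertain as to member. Alb, Apob and Trf had log2 fold changes of -0.24, -0.06 and 0.20 (adjusted p = 0.59, 0.926 and 0.681). Of 11 acute phase genes 1, Serpina3n, fell, where 1.45% of all tested genes fell, and the median was -0.63 with 8 negative. Serpina3n had 289, 332 and 287 CPM in HFCF livers, against 722, 653 and 587 CPM in chow livers (log2 fold change -1.10 ± 0.30 SE, adjusted p = 0.0246). Hp, Itih3 and Fgl1 had log2 fold changes of 0.29, -0.94 and -1.27 (adjusted p = 0.619, 0.103 and 0.287). In the 6 libraries alone Itih3 (0.015) and Fgl1 (0.00402) passed, as they did without HFCF replicate 1 or 3 of 1 month (0.00837 to 0.0483). Serpina10, an inhibitor in blood clotting, fell (-1.6 ± 0.43, adjusted p = 0.0197). Serpina3n did not pass without any 1 of the 6 libraries (adjusted p = 0.0624 to 0.163), nor did Serpina10 without HFCF replicate 2 or chow replicate 3 and by limma-voom (0.108 to 0.247).

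Several genes that fell stood outside these lists and were low. Il17rc, a subunit of the interleukin-17 receptor, had 61.9, 66.3 and 67.5 CPM in HFCF livers, against 459, 242 and 359.6 CPM in chow livers (log2 fold change -2.37 ± 0.55 SE, adjusted p = 0.00561). Bag3, a co-chaperone of HSP70, had 20.6, 44.2 and 50.7 CPM in HFCF livers, against 197, 290.0 and 208 CPM in chow livers (log2 fold change -2.50 ± 0.71 SE, adjusted p = 0.037). Fos, an immediate early transcription factor, had 82.5, 287 and 186 CPM in HFCF livers, against 525, 459 and 568 CPM in chow livers (log2 fold change -1.49 ± 0.37 SE, adjusted p = 0.0127). These 3 had groups that were apart, at few counts, such as 3, 3 and 4 for Il17rc in HFCF livers and 14, 10 and 19 in chow livers. Eif4ebp3, a repressor of translation, had a log2 fold change of -2.36 ± 0.60 (adjusted p = 0.0176), Tedc2, of centriole triplets, -1.56 ± 0.42 (adjusted p = 0.0213), Slco1a4, an organic anion transporter, -1.47 ± 0.40 (adjusted p = 0.0213), and Abhd15, of the regulation of lipolysis in fat cells, -1.42 ± 0.34 (adjusted p = 0.00895). Lurap1l (-1.28 ± 0.32, adjusted p = 0.0127) and Egfr, the epidermal growth factor receptor (-0.99 ± 0.26, adjusted p = 0.019), fell as well and were named after their values were seen. Bag3 did not pass without HFCF replicates 1, 2 or 3 or chow replicates 2 or 3 and with the replicate block (adjusted p = 0.0596 to 0.122), nor did Fos without HFCF replicates 1 or 3 or chow replicate 3 (0.0601 to 0.128). Eif4ebp3 did not pass without HFCF replicates 1 or 2 or chow replicate 3, by limma-voom and with all classes in 1 fit (adjusted p = 0.0624 to 0.427), nor did Tedc2 without HFCF replicates 1, 2 or 3 or chow replicates 1 or 3 and by limma-voom (0.0592 to 0.14). Slco1a4 did not pass without HFCF replicate 2 or chow replicates 2 or 3, by limma-voom and with all classes in 1 fit (adjusted p = 0.0567 to 0.159), nor did Abhd15 without chow replicate 3 (0.0642). Lurap1l did not pass without HFCF replicates 1 or 2 or chow replicates 2 or 3 (adjusted p = 0.055 to 0.172), nor did Egfr without HFCF replicate 3 or chow replicates 1 or 3 and with all classes in 1 fit (0.0674 to 0.244).

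The other rises were of mixed function. Actb, cytoplasmic actin, had 887, 774 and 979 CPM in HFCF livers, against 229.7, 387 and 341 CPM in chow livers (log2 fold change 1.43 ± 0.29 SE, adjusted p = 0.000749). Rtn4, which shapes the endoplasmic reticulum, had 268, 221 and 422 CPM in HFCF livers, against 65.6, 48.3 and 75.7 CPM in chow livers (log2 fold change 2.24 ± 0.53 SE, adjusted p = 0.00656). The groups were apart for both; actin counts are uncertain because of pseudogenes and paralogs. Hbb-bs, a beta globin of red cells, had 11, 10 and 18 counts in HFCF livers and 4, 3 and 3 in chow livers (log2 fold change 1.63 ± 0.48 SE, adjusted p = 0.0473); it shares sequence with Hbb-bt, which is not analysed here. The 3 red cell miRNAs did not pass: Mir486 had a log2 fold change of 0.53 (0.31), with all HFCF libraries above all chow libraries, Mir144 -0.45 (0.387), with all HFCF libraries below, and Mir451 0.21 (0.649), with the groups overlapping. Mir451 and Mir486 lie opposite another miRNA locus, so their counts are uncertain without the strand setting. Akr1c6, a steroid dehydrogenase with close relatives, rose by 1.07 ± 0.30 on the log2 scale (adjusted p = 0.0284), and 4931406C07Rik by 1.32 ± 0.38 on the log2 scale (adjusted p = 0.0382). Mgst1, a glutathione transferase of membranes that was named after its values were seen, rose by 0.68 ± 0.20 on the log2 scale (adjusted p = 0.037). Steap4, a metalloreductase named in the same way, did not pass (1.15, 0.0661), except in the 6 libraries alone (0.0189) and without chow replicate 1 of 1 month (0.0424). Rtn4 did not pass without HFCF replicate 3 and by limma-voom (adjusted p = 0.0573 to 0.163), nor did Hbb-bs without HFCF replicates 1, 2 or 3 or chow replicates 2 or 3 and in 18 of 24 alternatives in all (0.0503 to 0.285). Akr1c6 did not pass without HFCF replicates 1 or 2 or chow replicates 1, 2 or 3 and in 9 of 24 alternatives in all (adjusted p = 0.052 to 0.152), nor did 4931406C07Rik without any 1 of the 6 libraries and in 11 of 24 alternatives in all (0.0624 to 0.237). Mgst1 did not pass without any 1 of the 6 libraries and in 11 of 25 alternatives in all (adjusted p = 0.0501 to 0.406).

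Several lists held no gene that passed in edgeR. Over all 1591 tested protein-coding genes, 235 had an unadjusted p under 0.05 in edgeR. Of 24 tested cytochrome P450 genes 7 had an unadjusted p under 0.05, DESeq2 called 1 lower and limma-voom 0, and the median was -0.07; Cyp2e1, which oxidises ethanol, had a log2 fold change of 0.17 (0.744) and Cyp3a11, of drug metabolism, -0.21 (0.808). Of 19 genes of bile acid and sterol disposal 5 had an unadjusted p under 0.05, DESeq2 called 1 higher and 1 lower and limma-voom 0, and the median was -0.15. Cyp8b1, which sets the share of cholic acid, had 495, 597 and 523 CPM in HFCF livers, against 952, 967 and 909 CPM in chow livers (log2 fold change -0.81 ± 0.26 SE, adjusted p = 0.0809), and Slco1b2, a bile acid importer, had a log2 fold change of 0.59 (0.101). Neither passed in edgeR with all 12 libraries, while both did in the 6 libraries alone (0.0277 and 0.0231) and by DESeq2. Of 23 genes of conjugation and antioxidant defence 2 had an unadjusted p under 0.05, of 14 of gluconeogenesis and glycolysis 1, of 10 of the endoplasmic reticulum stress response 1 and of 5 clock genes 0, and neither DESeq2 nor limma-voom called any of them. Their medians were 0.18, -0.05, -0.06 and 0.02. Pck1, the controlled step of gluconeogenesis, had a log2 fold change of -0.47 (0.204), and the chaperone Hspa5 -0.56 (0.245).

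**Figure D4:**
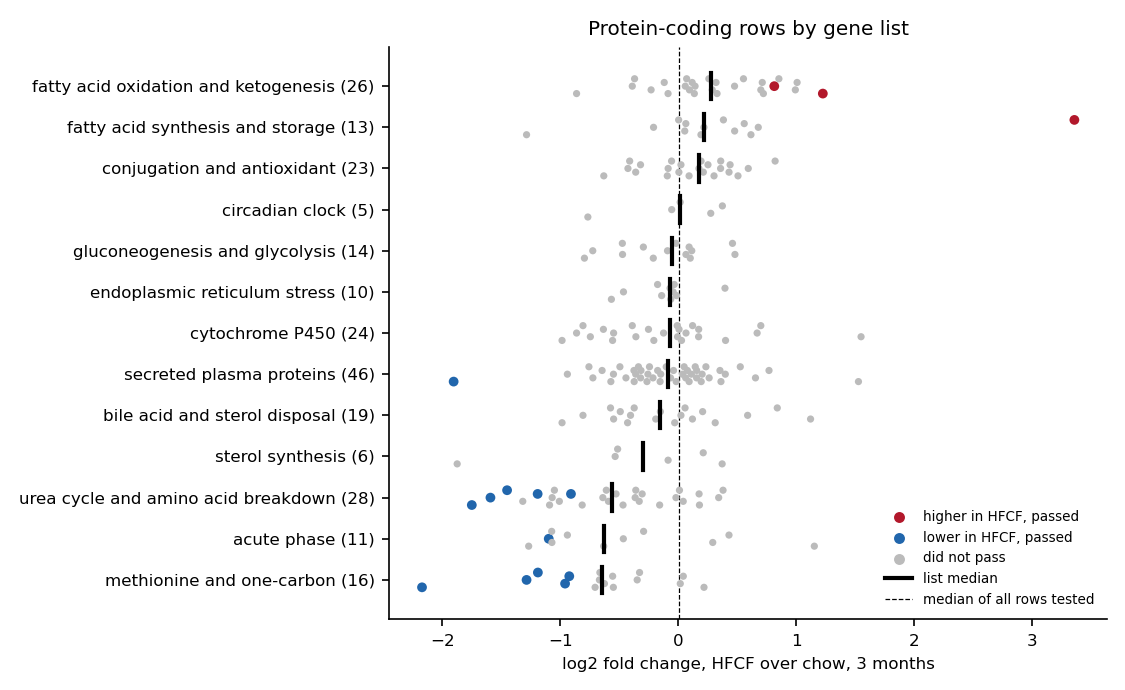
Log2 fold change of HFCF over chow at 3 months for every tested gene of each protein-coding list with at least 5 tested genes. Red (higher in HFCF) and blue (lower in HFCF) points passed, grey points did not, and the bar marks the median of the list. The medians of the urea cycle and methionine lists are -0.56 and -0.64, and that of fatty acid oxidation is 0.28.

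Transcripts of other liver cells were near the limit of detection. The macrophage and leukocyte markers Clec4f, Lyz2, Cd74 and Csf1r together had 12, 26 and 42 counts in HFCF livers and 14, 14 and 12 in chow livers; Cd68, Adgre1 and Ptprc are not analysed here. The stellate cell markers Col1a2 and Col3a1 together had 5, 19 and 21 counts in HFCF livers and 5, 5 and 4 in chow livers. Scaled for depth, the macrophage and leukocyte markers had 247, 575 and 709 CPM in HFCF livers and 459, 338 and 227 CPM in chow livers. The stellate cell markers had 103, 420 and 355 CPM in HFCF livers and 164, 121 and 75.7 CPM in chow livers. In both lists HFCF replicate 1 was within the range of the chow libraries or at its edge. The macrophage list had 3 tested genes, all positive, with a median of 0.70, and 0 passed (0 by DESeq2 and 0 by limma-voom): Ctsb, a lysosomal protease (0.10, 0.923), Cd5l (0.75, 0.511) and Mpeg1 (0.70, 0.565). The 7 hepatocyte transcripts used as markers summed to 69910, 67650 and 69520 CPM in HFCF livers, against 76590, 72930 and 75730 CPM in chow livers, and the groups were apart. Alb alone gave 42038, 38734 and 40642 CPM of this in HFCF livers, and 49118, 46208 and 48284 CPM in chow livers. Alb, Apoa1 and Fgb had negative log2 fold changes (-0.24, -0.15 and -0.44). Apoa2, Ttr, Serpina1c and Trf had positive ones (0.20, 0.24, 0.04 and 0.20). None of them passed in edgeR, and groups were apart at 20.1% of all tested genes. The 3 hepatocyte miRNAs used as markers summed to 280800, 233800 and 235700 CPM of miRNA counts in HFCF livers, against 240500, 257800 and 271800 CPM in chow livers, which overlap. The part of these levels in the changes above was not tested.

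Where an intronic or exonic miRNA and its host gene were both tested, the host did not pass. Mir1948 had a log2 fold change of -1.23 and its host Ttc39c -0.41 (edgeR adjusted p = 0.654), and Mir345, in an exon of the liver carrier Slc25a47, -0.79 against -0.25 (0.778) for its host. Mir101b and its host Rcl1 stood at -0.54 and 0.39 (0.756), and Mir511 and Mrc1, the mannose receptor of macrophages and endothelium, at -0.60 and -0.17 (0.908). These hosts had few counts, with 6 to 37 per library in HFCF livers and 4 to 34 in chow livers, which is a low depth for a test.

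Of the snoRNAs, Snord123 alone passed. It is a C/D box snoRNA of a Snhg18 intron, in a non-coding host (chr15:32241853-32241923, minus strand, mm10); its sequence from the annotation (GENCODE M21) is printed on its own strand, with the C box match ATGATGA and the D box match CTGA in capitals, since the class is named for them.
Snord123: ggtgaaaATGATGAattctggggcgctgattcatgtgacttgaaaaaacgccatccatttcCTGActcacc
The letters ATGATGA occur in 46 of 125 C/D box genes with a sequence, which is 36.8%, and in 0 of 86 H/ACA genes, and CTGA in all 125 and in 51.2%, read on the gene's own strand; a match is only a description. Snord123 had 213, 348 and 394 CPM in HFCF livers, against 52.8, 76.7 and 89 CPM in chow livers, with CPM taken over snoRNAs and scaRNAs, or 76, 81 and 141 counts in HFCF livers and 11, 23 and 32 in chow livers (log2 fold change 2.09 ± 0.33 SE, adjusted p = 0.00406). The lowest HFCF library was well above the highest chow library. It passed under every alternative, with adjusted p up to 0.0392.

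No other snoRNA or scaRNA passed. The next smallest p-values, all at an adjusted p of 0.168, were Snora26 (-0.73), Gm24339 (1.07), Snord13 (-0.47), Gm23201 (-0.65), Snord38a (-0.57), SNORD94 (-0.40) and Snord34 (-0.46), as log2 fold changes in edgeR. Gm24339 passed without HFCF replicate 1 (adjusted p = 0.0172). Of 136 tested C/D box genes 60 were positive and 76 negative, with a median of -0.04, and 10 lay wholly above and 25 wholly below the chow libraries. Of 88 H/ACA genes 52 were positive, with a median of 0.08, and of 15 scaRNA genes 11, with a median of 0.25. The scaRNA share of the class was 1.56%, 1.88% and 1.82% in HFCF livers, against 1.42%, 1.42% and 1.39% in chow livers, and the groups did not overlap. The 58 genes in introns of ribosomal protein genes and Rack1 had 1 wholly above and 11 wholly below, with a median of -0.12, where 8.27% and 13% of all tested snoRNAs and scaRNAs lay above and below. The most counted, Snord104, SNORD27 and SNORD81, had log2 fold changes of -0.31, -0.28 and -0.37 (adjusted p = 0.272, 0.381 and 0.381). Without HFCF replicate 1, 3 genes of the class were called.

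The 3 tested snoRNAs in introns of Hspa8, the constitutive HSC70 chaperone, were all positive with a median of 0.59. Snord14d had 2072, 2219.7 and 2801 CPM in HFCF livers, against 1489, 1501 and 1729 CPM in chow livers (log2 fold change 0.59 ± 0.19 SE, adjusted p = 0.205), and Snord14c, named after its values were seen, had 1918, 1674 and 2768 CPM in HFCF livers, against 1581, 1111 and 1487 CPM in chow livers (log2 fold change 0.61 ± 0.22 SE, adjusted p = 0.272). Neither passed; the groups were apart for both. The 4 in introns of Rpl13a were all negative, with a median of -0.33, and none passed.

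**Figure D5:**
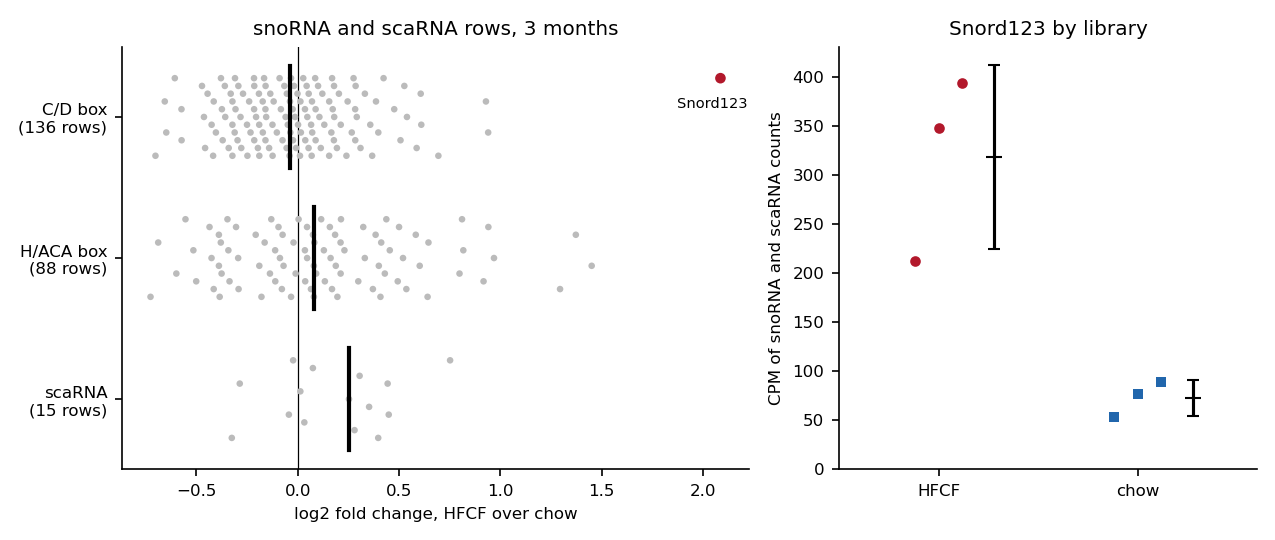
Left, log2 fold change of HFCF over chow at 3 months for each tested snoRNA or scaRNA gene by box type, with the median as a bar. Right, Snord123 in CPM of the class in each HFCF and chow library with mean ± SD, n = 3 each; the HFCF libraries lie between 213 and 394 CPM and the chow libraries between 52.8 and 89.0 CPM.

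The same comparison was made after 1 month on the diet. Of the 39 protein-coding genes, 35 had the same sign at 1 month (89.7%, against 54.2% of all tested genes) and 7 were called there too, among 29 calls at 1 month. Scd1 had a log2 fold change of 3.36 at 3 months and 1.6 at 1 month, Serpina1e -1.90 at 3 months and -1.16 at 1 month, and Cps1 -1.45 at 3 months and -0.51 at 1 month. Of the 52 miRNA loci 42 had the same sign at 1 month (80.8%, against 64.8% of all tested loci), and 10, among them Mir205, Mir802, Mir21 and Mir101a, had the other sign. At 1 month 5 of the 52 were called too, among 7 calls there, Snord123 had the other sign, and 0 snoRNAs were called at 1 month. The difference between the times was itself tested. It passed for 2 of 227 miRNA loci, Mir205 and Mir741 (0.881%), for 1 of 254 snoRNAs, Snord123 (0.394%), and for 0 of 1591 protein-coding genes in edgeR (149 at an unadjusted p under 0.05, 0 by DESeq2 and 1 by limma-voom). So for no protein-coding gene was a larger change at 3 months shown by edgeR. Without HFCF replicate 1, 28 miRNA loci and 7 protein-coding genes passed this test, and 1 protein-coding gene did without chow replicate 1. Without any other 1 of the 6 libraries, 0 miRNA loci passed.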

How the data were processed

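Total RNA was taken from 12 livers in 4 groups of 3, per the labels. The deposited table holds whole-number read counts per gene, with FPKM columns beside them that were not used here, per the file headers; the build is mm10, per the submitters' processing notes, while for the aligner, counting tool and strand setting the entry is: not given in the sources used here. Every gene in the table reaches 10 counts in at least 1 library, so genes below that are not in the test. A count belongs to a whole hairpin, with both arms summed.

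Genes were put in classes by GENCODE M21, which holds 3617 of the 3717 identifiers: 259 miRNA loci, 2889 nuclear protein-coding genes after 68 that share reads with a small RNA inside them were set aside (585851 to 1090453 counts per library at 3 months), and 269 snoRNA and scaRNA genes. Each class was scaled within itself (TMM, library size the class sum), filtered with filterByExpr and tested with edgeR 4.0.16's quasi-likelihood test (robust, R 4.3.3) over all 12 libraries with 1 mean per group. P-values were Benjamini-Hochberg adjusted within the class, and adjusted p under 0.05 was called. SE is the absolute log2 fold change over the square root of F. CPM use TMM-scaled class totals. The low counts of protein-coding genes limit precision. Shares were compared by exact permutation. The scripts were tested on simulated data. Changes of 2-fold were recovered at 66.7% of changed miRNA loci, 37.9% of changed protein-coding genes and 93.3% of changed snoRNAs and scaRNAs. False calls at 3 months were 1, 3 and 6 in these classes, with 227, 1591 and 254 genes simulated. Alternatives were DESeq2 1.42.0, limma 3.58.1 (voom), other scaling, filters, adjustment and sample sets, and leaving out each library.

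The members, lists and naming rule were chosen with earlier results of these data known. Named are, per class, up to 15 rises and 15 falls that passed, did not overlap and reached 10 CPM (50 CPM for protein-coding genes), filled up to 10 by the smallest p where fewer than 10 qualified, list members that passed, up to 3 that did not, and the 3 most counted. Exceptions are marked, and some genes that this rule would name are not reported here. Not analysed here are miR-122, miR-199a and miR-146b.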

Additional observations from a re-analysis of the deposited data

Results flagged for a closer look

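For Mir205, Mir741 and Snord123 the effect of the diet at 3 months differed from that at 1 month by edgeR's test of the difference. Mir205 had a log2 difference of 4.01 ± 0.75 SE (adjusted p = 0.0326), with log2 fold changes of 3.98 at 3 months and -0.03 at 1 month, and passed in 10 of 22 alternatives (adjusted p = 1.2e-05 to 0.166). Mir741 had a log2 difference of -2.89 ± 0.60 (adjusted p = 0.0436), with -1.70 at 3 months and 1.19 at 1 month, and passed in 10 of 22 (0.00415 to 0.167). Snord123 had a log2 difference of 2.41 ± 0.46 (adjusted p = 0.0312), with 2.09 at 3 months and -0.32 at 1 month, and passed in 9 of 23 (0.00057 to 0.133). Leaving out any 1 of the 6 libraries of 3 months other than HFCF replicate 1 ended all 3 of these calls.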

How the results depend on the processing

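Of the genes and loci called at 3 months, 0 changed sign under any alternative. Of 82 named ones that passed, 32 passed in every alternative, 21 were lost in 1 to 4 and 29 in 5 or more; of 90 that did not pass, 19 passed in at least 1. For the miRNA loci called (52), adjusting over the 3 classes together left 25 and fitting all genes at once 26. Class totals without TMM gave 77, and leaving out 1 library gave 20 to 70. The protein-coding calls (39) were 68 in the 6 libraries alone and 17 to 48 with 1 library left out; 17 were called without chow replicate 3 and 24 without HFCF replicate 2. The snoRNA call (1) became 1 to 3. The difference between times was called at 2 miRNA loci; at 26 with class totals, 20 by DESeq2, 0 by limma-voom, 4 with the replicate block, 0 adjusted over all classes, 1 with all genes in 1 fit, and 0 to 28 with 1 library left out. For protein-coding genes (0) it was 1 by limma-voom, 5 with the replicate block and 0 to 7. For snoRNAs (1) it was 2 by DESeq2, 0 by limma-voom, 0 with the replicate block, 0 adjusted over all classes, 0 in 1 fit and 0 to 2. The causes were not tested. The difference in class shares, HFCF minus chow, with read-sharing genes kept was -2.81 percentage points for protein-coding genes and -0.203 for other long genes.

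Replicate numbers are shared by the groups. The correlations of deviations between same-numbered libraries were 0.129, 0.168 and -0.0658 for miRNA loci. They were 0.0125, -0.00868 and -0.0189 for protein-coding genes and 0.00725, 0.034 and -0.0653 for snoRNAs. Not every library correlated best with its own number, though for miRNA loci HFCF replicates 1 and 2 did. With deviations taken from means of 3 libraries, these values cannot settle whether the numbers mark pairs. With the replicate block Cyp4a14 (adjusted p = 0.00402) and Fgl1 (0.0133) passed as well. The block called 52 miRNA loci (46 of them the same), 44 protein-coding genes and 1 snoRNA. Depth also limits the protein-coding results: 608 of 1591 tested genes had a mean under 10 counts.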

Other observations

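Mitochondrially encoded RNAs were left out of the main tests of single genes. Their share of counts was 3.34%, 1.94% and 3.19% in HFCF livers and 2.49%, 2.03% and 2.3% in chow livers (exact permutation p = 0.4). Most of these counts were ribosomal RNA, at 80.0% to 81.5% in HFCF livers and 79.9% to 82.8% in chow livers. Other small RNA genes (fragments of ribosomal, spliceosomal and other small RNAs) took 4.2%, 3% and 4% in HFCF livers and 3.3%, 2.81% and 3% in chow livers (exact permutation p = 0.3). Within them, ribozyme RNAs took 9.38%, 8.56% and 10.4% in HFCF livers, against 7.96%, 9.11% and 7.57% in chow livers, and the groups overlapped.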
